A study of Mus musculus with 9 samples.

Results

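The genes described here encode the parts of the microtubule system in the fetal mouse brain, namely the tubulins that form the microtubule, the kinesins and cytoplasmic dyneins that walk along it, and 6 proteins that bind it. Members were picked by symbol from the deposited gene table. They were the alpha, beta and gamma tubulins, the kinesin heavy chains (Kif and Kifc), the kinesin light chains (Klc), the cytoplasmic dynein chains (Dync and Dynl), and Map1a, Map1b, Map1s, Map2, Mapt and Dcx. The rule found 85 loci of the 27095 in the table. Of these, 66 could be compared between groups, 15 had a mean below 1 FPKM over the 3 groups, and 4 lacked an estimate in at least 1 group. FPKM counts sequenced fragments scaled to transcript length and to library size, so that levels of different genes can be set side by side.

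RNA was sequenced from 9 C57BL/6 wild type mouse fetuses (C57BL/6J in the study's methods) in 3 groups of 3. Pregnant dams were injected with EtOH at 2.9 g/kg on gestational day 7 or, for the control group, with vehicle, and tissue was taken on gestational day 17. The labels call the tissue fetal brain and the methods cortex, and which of these the libraries hold was not settled here. EtOH-exposed offspring were scored as affected or unaffected by whether they had visible defects of the eye and of the face or cortex, so the split between those groups was made on morphology and not assigned. All fetuses carried the same labelled genotype, and the sources used here do not assign each fetus to a litter. The table gives 1 pooled FPKM per group and no value of any single animal. The spread between animals could therefore not be computed. The test columns that come with the table were not used and no test was run here, so the differences below are descriptions that are not set against replicate error. Differences are given as log2 ratios of FPKM after adding 0.1, and a locus is called higher or lower past the fold when the ratio reached 0.32 on the log2 scale, which is 25% above or 20% below the other group. Unless said otherwise, a run of 3 levels is given in the order control, unaffected, affected, and a pair of log2 ratios in the order affected against control, affected against unaffected.

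Microtubules are hollow filaments of alpha and beta tubulin dimers, nucleated by rings that contain gamma tubulin. Most kinesins carry cargo or slide filaments toward the plus end, cytoplasmic dynein moves toward the minus end, and structural microtubule-associated proteins such as tau (Mapt) and Map2 stabilise axons and dendrites. In the developing cortex this system drives cell division, the movement of the nucleus and neuronal migration, and mutations in Tuba1a, Tubb2b, Tubb3, Tubb5, Tubg1, Kif2a, Kif5c, Dync1h1 and Dcx are known causes of human cortical malformations.

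The most abundant alpha tubulins could not be read from this table. Tuba1a, the main alpha tubulin of migrating neurons, was listed at 0 in all 3 groups. Tuba1b was listed at 106 FPKM in control and at 0 in both EtOH-exposed groups, and Tuba1c at 5.38, 0 and 5.37 FPKM in control, unaffected and affected offspring. The joined locus of Tubb2a and Tubb2b stood at 2453 FPKM in control and at 0 in both EtOH-exposed groups. All 4 carried the mark with which the software reports that it gave up on a locus with too many fragments, which 9 loci carried in the whole table, so a 0 here is a missing estimate and no ratio was formed. Tuba1a lies at chr15:98949837-98953703 on the minus strand, Tuba1b at chr15:98931425-98934565 on the minus strand and Tuba1c at chr15:99029891-99038110 on the plus strand of GRCm38. Their sequences are also hard to tell apart. The coding sequences of Tuba1a and Tuba1b are both 1353 bases long and share 1330 of them, 98.3%. Of all 50-base windows of their annotated transcripts, the length of 1 read, 75.5% in Tuba1a, 75.1% in Tuba1b and 52.7% in Tuba1c also occur in a transcript of another gene. The alpha tubulin that passed the filter was Tuba4a, at 10.1, 9.45 and 9.83 FPKM in control, unaffected and affected offspring, with 35.4% of its windows shared, mainly with its overlapping neighbour Stk16. Tuba3a, Tuba3b and Tuba8 stood below 0.2 FPKM in every group.

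The most abundant beta tubulins with an estimate were nearly level across the groups. Tubb3, the neuronal beta tubulin, stood at 1809, 1807 and 1799 FPKM in control, unaffected and affected offspring. Tubb5, abundant in dividing progenitors and young neurons, stood at 1899.7, 1937 and 1984 in the same order. Their log2 ratios between affected and control were -0.01 and 0.06. Tubb4a stood at 171, 155 and 193 FPKM and Tubb4b at 211, 235 and 191, so the former was highest and the latter lowest in affected offspring, with log2 ratios to unaffected of 0.31 and -0.30. Of the windows of Tubb4b, 41.3% occur in transcripts of other genes, most of them pseudogene copies, so its reads may be split. Tubb6 ranged from 6.77 to 7.22 FPKM. The processed copy Tubb2a-ps2 was the beta tubulin locus past the fold against control (log2 0.40), at 4.36, 4.64 and 5.79 FPKM, and 32.6% of its windows are shared with other genes. Of the gamma tubulins, Tubg1 stood at 32.6, 35.4 and 35.0 FPKM and Tubg2 at 13.3, 13.0 and 13.6. The median log2 ratio of the 9 tubulin loci compared was 0.06 in affected against control, 0.03 in affected against unaffected and 0.03 in unaffected against control.

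**Figure D1:**
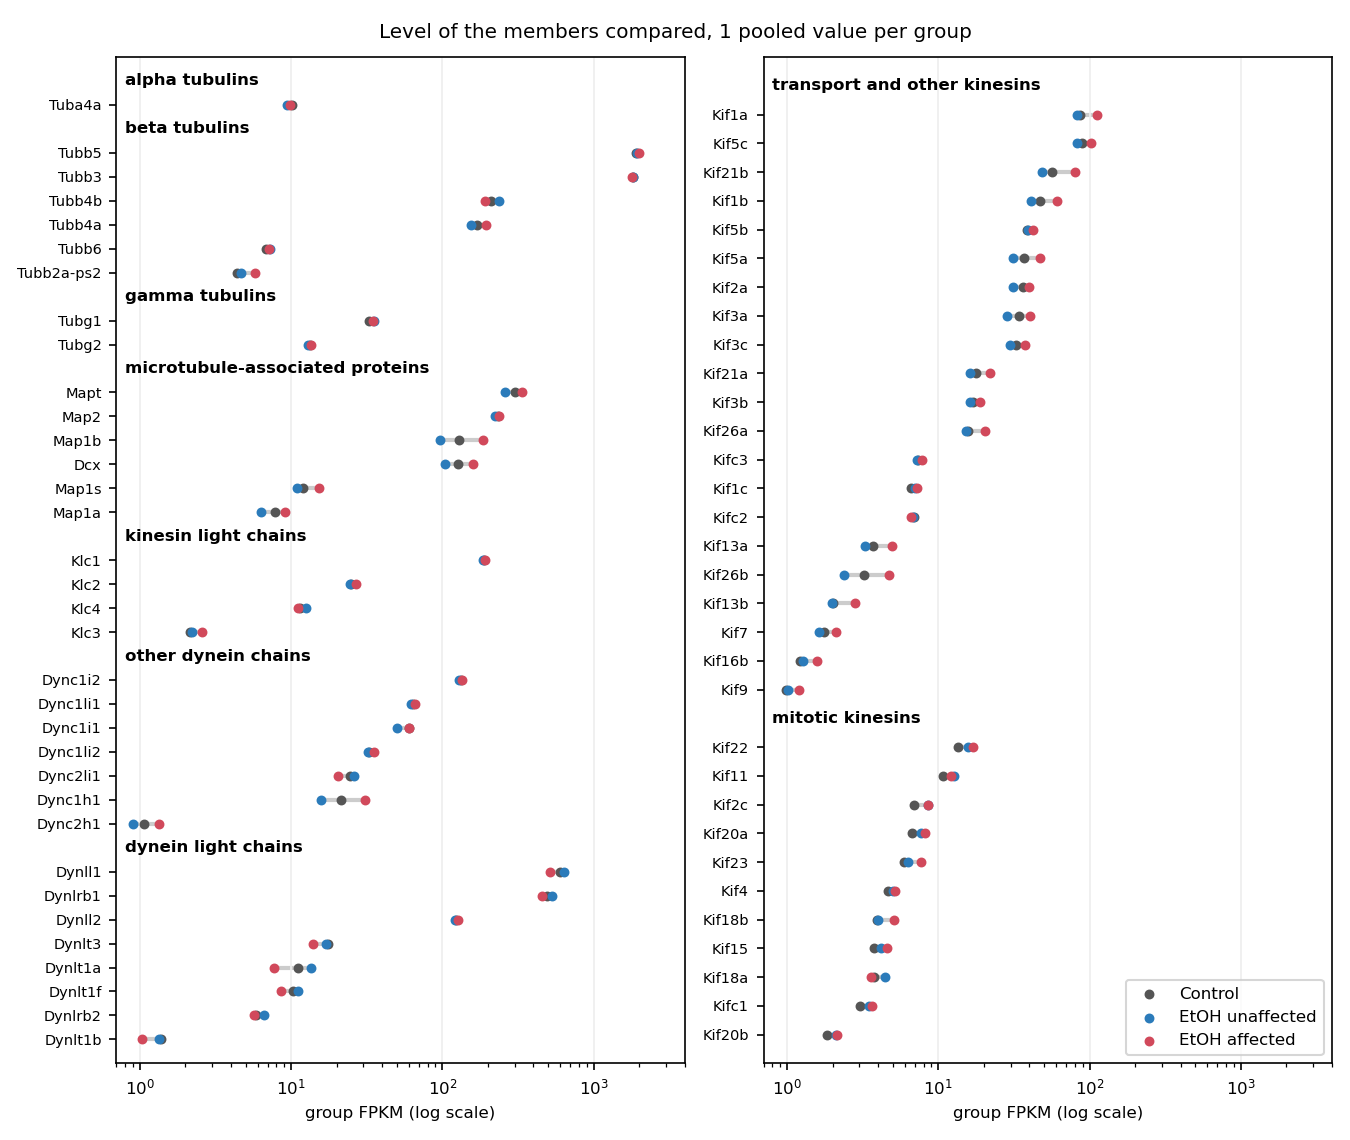
Group FPKM on a log axis for the 66 members compared, in rows by role, with a point for each group and a bar from the lowest to the highest group. Tubb3 and Tubb5 lie at the far right (1799 to 1984 FPKM) with the groups on top of each other, whereas Map1b, Dync1h1 and Kif26b spread from unaffected on the left to affected on the right.

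Across the members, higher values in the affected group outnumbered lower ones. In affected against control offspring, 16 of 66 members were higher past the fold and 3 were lower, beside 12.1% and 11.3% of the 15543 loci compared. In affected against unaffected offspring, 21 were higher and 4 lower, beside 20.3% and 18.1% of loci. In unaffected against control offspring, 0 were higher and 3 lower, beside 5.45% and 6.77%, and the 3 were Dync1h1, Map1b and Kif26b. The median log2 ratio of the members was 0.17, 0.12 and -0.03 in these comparisons, and that of all loci compared was 0.02, 0.01 and 0.01. The comparisons share groups, so a value that is high in affected offspring raises both comparisons with that group. In bulk tissue, fewer cells of a type and less RNA per cell cannot be told apart. The counts also moved with transcript length.

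**Figure D2:**
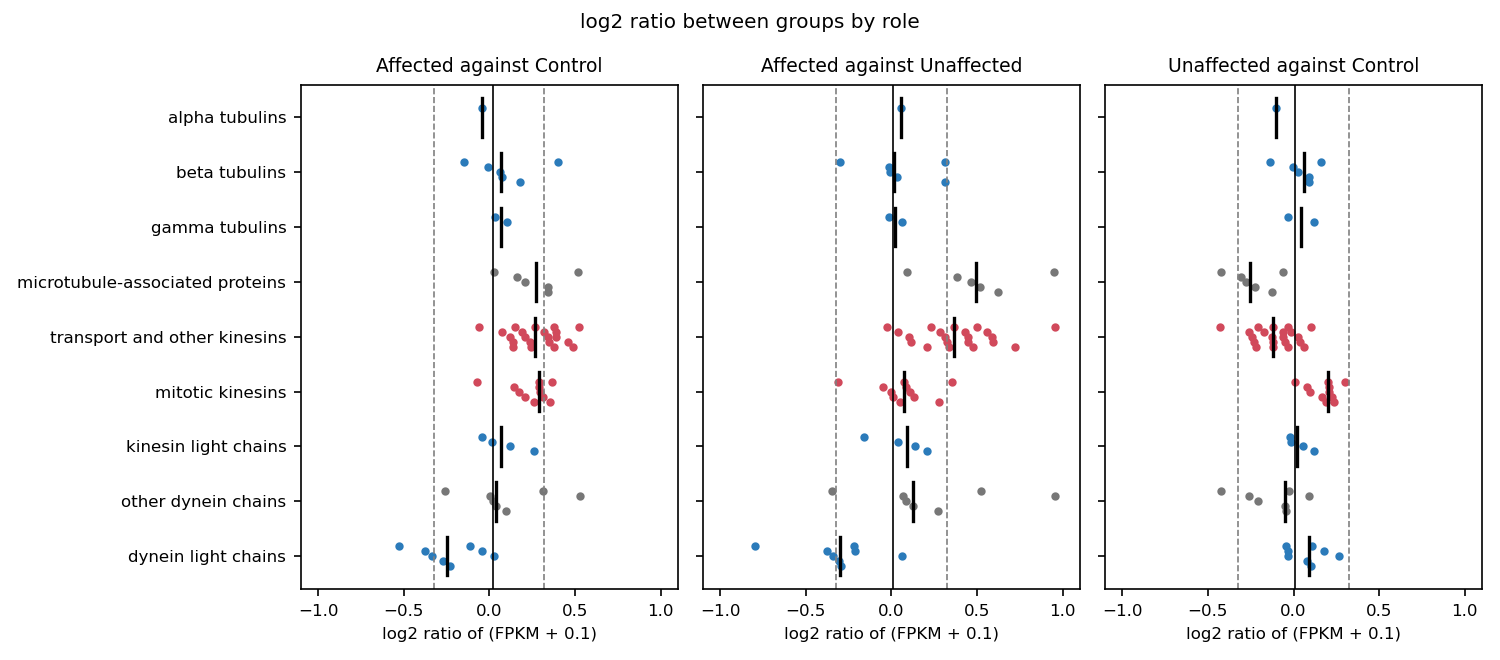
The log2 ratio of FPKM + 0.1 between groups for each member compared, by role, in 3 comparisons. Short bars mark the median of a role, the solid line the median of all loci compared and dashed lines the limits of the fold. Transport kinesins and microtubule-associated proteins lie to the right in the comparisons with affected offspring (medians 0.26 and 0.28 against control), and dynein light chains lie to the left (-0.25). Mitotic kinesins have the highest median of the roles in affected against control (0.29), and 0.07 in affected against unaffected.

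The microtubule-associated proteins had the highest median log2 ratio of affected to unaffected offspring among the roles as deposited (0.49), though not after loci of like length were subtracted (0.27, beside 0.29 for gamma tubulins). All 6 stood highest in affected and lowest in unaffected offspring. Map1b, which binds microtubules in growing axons, stood at 129, 96.3 and 186 FPKM in control, unaffected and affected offspring. The affected group was thus 1.43-fold above control (log2 0.52) and 1.93-fold above unaffected (0.95), and the unaffected group was below control (-0.43). Dcx, the doublecortin of migrating neurons, stood at 126, 104 and 160 FPKM, with log2 ratios of 0.34 to control and 0.62 to unaffected. Map1s stood at 12.0, 11.0 and 15.3 FPKM (0.34 and 0.47). Map1a, the relative of Map1b that increases as neurons mature, stood at 7.83, 6.31 and 9.06 (0.21 and 0.52). Mapt, which encodes tau, stood at 302, 258 and 337 FPKM (0.16 and 0.38). Map2, the dendritic marker, moved least, at 233, 223 and 238 FPKM (0.03 and 0.09). Against control, 3 of the 6 were higher past the fold and 0 lower, beside 12.1% of all loci higher. Against unaffected, 5 were higher and 0 lower, beside 20.3%. Their median longest transcript was 7666 nucleotides, and of all loci of 6 kb or more 25.2% and 51.2% were higher in these comparisons.

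Among the 30 loci of transport and other kinesins, 21 were compared, and 9 were higher and 0 lower past the fold in affected against control offspring, beside 12.1% of all loci higher. Against unaffected offspring 13 were higher and 0 lower, beside 20.3%. Their median longest transcript was 6439 nucleotides, and of all loci of 6 kb or more 25.2% and 51.2% were higher. The median log2 ratio was 0.26 against control and 0.36 against unaffected, and -0.12 in unaffected against control. Kif26b, an atypical kinesin of cell adhesion and signalling, differed most, at 3.23, 2.37 and 4.69 FPKM in control, unaffected and affected offspring (log2 ratios 0.52 and 0.95). Kif21b, a neuronal kinesin that limits microtubule growth, stood at 56.6, 48.1 and 79.5 FPKM (0.49 and 0.72). Both had the same order of groups as Map1b. Kif13b stood at 2.01, 1.99 and 2.80 FPKM (0.46 and 0.47), so its control and unaffected values were level. Among the axonal carriers of synaptic vesicle precursors, Kif1a stood at 86.1, 82.5 and 113 FPKM (0.39 and 0.45) and Kif1b at 47.0, 40.7 and 61.2 (0.38 and 0.59).

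The heavy chains of conventional kinesin, the carrier of vesicles and mitochondria, all stood highest in affected offspring, with ratios of different size. Neuronal Kif5a stood at 36.8, 31.0 and 46.8 FPKM in control, unaffected and affected offspring (log2 ratios 0.35 and 0.59). Neuronal Kif5c stood at 89.4, 82.2 and 102 (0.19 and 0.31), and ubiquitous Kif5b at 38.6, 39.3 and 42.5 (0.14 and 0.11). Only the values of Kif5a passed the fold, in both comparisons with affected offspring, and Kif5c was just inside it against unaffected. Whether these heavy chains differ from each other was not tested. Their partners, the kinesin light chains, which bind cargo, stayed within the fold in all 3 comparisons. Klc1 stood at 188, 185 and 190 FPKM, Klc2 at 24.7, 24.4 and 26.9, and Klc4 at 11.5, 12.5 and 11.1. Klc3 stood at 2.14, 2.23 and 2.58 FPKM, with 21.1% of its windows in the overlapping gene Ercc2. Kif2a, which removes tubulin from filament ends and prunes axon branches, stood at 36.5, 31.4 and 39.6 FPKM (0.12 and 0.34), and shares 19.7% of its windows, mainly with Dimt1. The heterotrimeric kinesin of cilia and axons was given by Kif3a at 34.0, 28.4 and 40.2 FPKM (0.24 and 0.50) and Kif3b at 16.9, 16.2 and 18.8 (0.15 and 0.21). The minus-end kinesins Kifc2 (6.91, 6.75 and 6.64 FPKM) and Kifc3 (7.36, 7.20 and 7.75) were nearly level.

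The mitotic kinesins, which build and move the spindle, had a different order of groups from the transport kinesins. All 11 compared stood above control in unaffected offspring, by 0.01 to 0.30 on the log2 scale with a median of 0.20, although 0 of them passed the fold, beside 5.45% of all loci. In affected offspring 10 of 11 stood above control, with a median of 0.29, and 2 were higher past the fold, beside 12.1% of all loci. Between the EtOH-exposed groups the median was 0.07, and 1 was higher past the fold, a share below the 20.3% of all loci. Kif18b, a plus-end depolymerase, stood at 3.94, 3.97 and 5.11 FPKM in control, unaffected and affected offspring (0.37 against control), and Kif23, which bundles the central spindle in cytokinesis, at 5.95, 6.28 and 7.62 (0.35). Kif22, the chromosome arm motor, at 13.6, 15.7 and 16.9 FPKM, was just inside the fold at 0.31. Kif2c, the centromeric depolymerase, stood at 6.93, 8.54 and 8.52 FPKM, and Kif11, which pushes the spindle poles apart, at 10.8, 12.6 and 12.2, so in both the EtOH-exposed groups lay together above control. Kif15 stood at 3.74, 4.20 and 4.61 FPKM, Kif20a at 6.68, 7.73 and 8.19, Kif20b at 1.83, 2.12 and 2.13, and Kif4 at 4.64, 4.98 and 5.15. In these, control was lowest and affected highest. Kifc1 stood at 3.04, 3.47 and 3.66 FPKM with 39.7% of its windows shared, mainly with Kifc5b, and 25.2% of Kif20a's are in Cdc23. Kif18a, which limits chromosome movement, was the exception, at 3.75, 4.44 and 3.56 FPKM, lowest in affected offspring. Kif14 stood at 0.83, 0.86 and 1.05 FPKM and was not compared.

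The dividing-cell markers moved in part with these kinesins. Of 10 such markers, 8 stood above control in unaffected offspring (median 0.19) and 9 in affected offspring (median 0.17), and 3 of the latter passed the fold (Mki67, Plk1 and Cenpe), beside 12.1% of all loci. Mki67 and Cenpe stood slightly below control in unaffected offspring (-0.09 and -0.08). In affected against unaffected offspring 5 of the 10 stood above and 5 below, with a median of -0.04. The summed level of these markers was 159, 181 and 184 FPKM. Of 10 neuronal markers, 10 stood below control in unaffected offspring, and 6 were higher and 0 lower past the fold in affected against unaffected offspring, with a median of 0.40, beside 20.3% of all loci higher. Their summed level was 1538, 1438 and 1562 FPKM. What part these cell types have in the kinesin values was not tested.

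**Figure D3:**
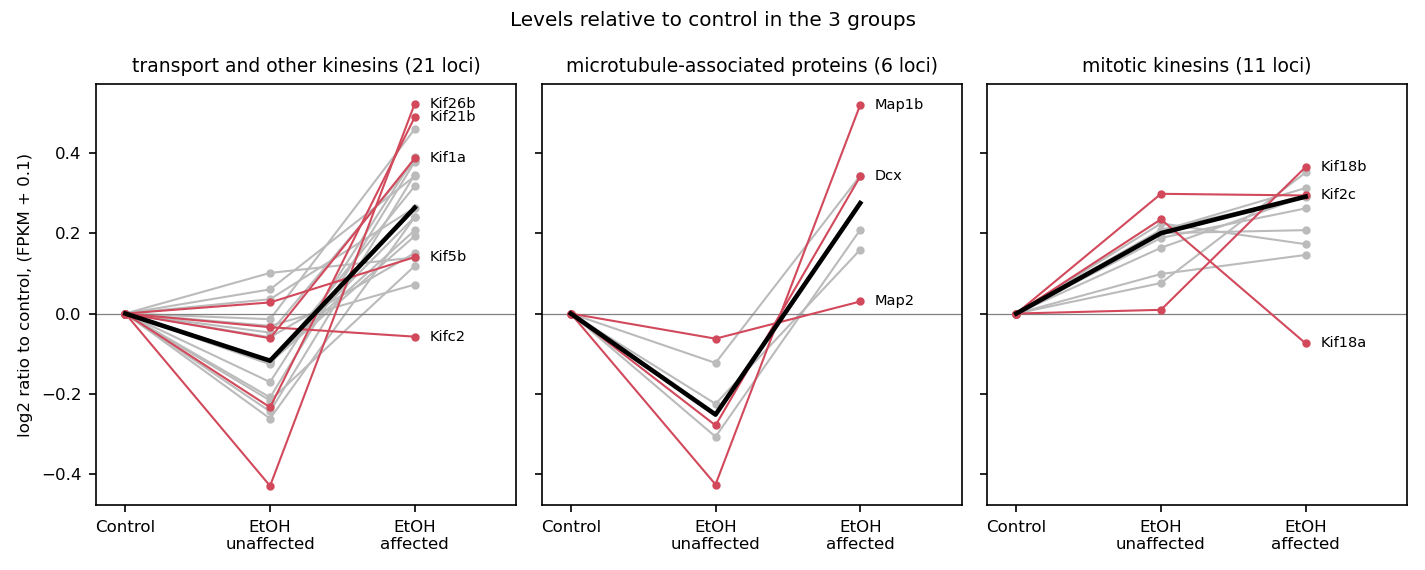
The log2 ratio of FPKM + 0.1 to control in the unaffected and affected groups, a line per locus, for 21 transport and other kinesins, 6 microtubule-associated proteins and 11 mitotic kinesins, with the median of each role in black and some loci named in red. The medians of the left and middle panels dip in unaffected offspring (-0.12 and -0.25) and are above control in affected offspring, whereas that of the mitotic kinesins is above control in both (0.20 and 0.29). All loci with a longest transcript of 6 kb or more have a median of -0.12 in unaffected against control, near that of the left panel.

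Dynein subunits differed by role. Dync1h1, the motor heavy chain of cytoplasmic dynein, stood at 21.3, 15.8 and 30.8 FPKM in control, unaffected and affected offspring. The affected group was 1.44-fold above control (log2 0.53) and 1.94-fold above unaffected (0.96), the largest ratios among the members compared. Dync2h1, the heavy chain that returns cargo along cilia, stood at 1.06, 0.91 and 1.35 FPKM and was just inside the fold against control (0.32 after rounding) and past it against unaffected (0.53). The 4 intermediate and light intermediate chains that assemble with Dync1h1 had its order of groups, unaffected lowest and affected highest, with smaller ratios that stayed within the fold. The intermediate chains stood at 60.3, 50.2 and 60.6 FPKM for Dync1i1 and 133, 129 and 135 for Dync1i2. The light intermediate chains stood at 64.3, 62.3 and 66.0 FPKM for Dync1li1 and 32.8, 32.2 and 35.1 for Dync1li2. Dync2li1, the light intermediate chain of the ciliary motor, stood at 24.4, 25.9 and 20.4 FPKM, lower in affected than in unaffected offspring (-0.35), the opposite direction to Dync2h1.

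Of the 8 dynein light chain loci compared, 7 stood below control in affected offspring, with a median log2 ratio of -0.25 and 3 lower past the fold, beside 11.3% of all loci lower. Against unaffected offspring the median was -0.30, with 3 lower and 0 higher, beside 18.1%. By longest transcript, 3 of the 8 are under 1 kb, where 47.5% and 64.2% of all loci were lower in these comparisons, 3 are at 2 to 3 kb, where 9.45% and 19.6% were lower, and 2 (Dynlt1a and Dynlt1f) at 3 to 4 kb, where 4.97% and 10.7% were lower. Dynll1, the abundant light chain hub, stood at 600.2, 634 and 512 FPKM in control, unaffected and affected offspring (-0.23 and -0.31). Dynlrb1 stood at 492, 526 and 455 FPKM (-0.11 and -0.21), while Dynll2, with 124, 121 and 126 FPKM, was level. Dynlt3 stood at 17.6, 17.1 and 13.9 FPKM (-0.34 and -0.29) and shares none of its windows. Dynlt1a in affected offspring stood furthest below the other groups, at 11.2, 13.5 and 7.73 FPKM (-0.53 and -0.79). Dynlt1b stood at 1.37, 1.34 and 1.04 FPKM (-0.38 and -0.34) and Dynlt1f at 10.3, 11.1 and 8.52 (-0.27 and -0.37).

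The Dynlt1 copies share most of their sequence, so their separate values are uncertain. They lie at chr17:6306340-6317500 on the minus strand (Dynlt1a), chr17:6430112-6436296 on the plus strand (Dynlt1b) and chr17:6646602-6655900 on the minus strand (Dynlt1f) of GRCm38. Their coding sequences are 339 bases long, with 339 of 339 bases alike in Dynlt1a and Dynlt1f and 338 in Dynlt1b against either. Of their 50-base windows, 70.5%, 83.2% and 88.6% occur in another gene. The first 60 coding bases, 5′ to 3′, hold the differing position, in capitals:
Dynlt1a: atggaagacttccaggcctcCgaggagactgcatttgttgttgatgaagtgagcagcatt
Dynlt1b: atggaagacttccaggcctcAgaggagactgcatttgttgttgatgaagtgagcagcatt
Dynlt1f: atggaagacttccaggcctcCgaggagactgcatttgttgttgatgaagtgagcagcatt
These are GENCODE M21 transcript sequences. With every member left out that shares at least 30% of its windows with another gene, which removed 8, the count of lower members in each comparison with affected offspring was 1 (Dynlt3 against control and Dync2li1 against unaffected), and the counts of higher members were 15 and 20.

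The direction of a member went with the length of its transcript. The 21 short members compared, the tubulins and the kinesin and dynein light chains, had a median log2 ratio of -0.01 in affected against control and -0.01 in affected against unaffected offspring. The 34 long members, the kinesin and dynein heavy chains, had medians of 0.29 and 0.30. Past the fold, the short members were 1 higher and 3 lower against control, and the long members 12 higher and 0 lower, beside 12.1% of all loci higher and 11.3% lower. Against unaffected offspring the counts were 0 higher and 3 lower for the short, and 16 higher and 0 lower for the long, beside 20.3% and 18.1%. The short members' 3 of 21 lower is near the share of all loci. In unaffected against control offspring the medians were 0.06 for the short and -0.03 for the long members.

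This order was not particular to motors and tubulins. Over all loci with an annotated length, sorted by the longest transcript of the gene, the median log2 ratio of affected to control was -0.31 under 1 kb, -0.16 from 1 to 2 kb, -0.05 from 2 to 3 kb, 0.02 from 3 to 4 kb, 0.10 from 4 to 6 kb and 0.21 at 6 kb or more. Against unaffected offspring it ran from -0.44 to 0.33 over the same bins, and in unaffected against control it ran the other way, from 0.13 to -0.12. Across the 66 members Spearman's rho between the longest transcript and the log2 ratio was 0.63, 0.69 and -0.48 in the 3 comparisons. Across all 12330 loci with a length it was 0.52, 0.59 and -0.49. With the median length of a gene's transcripts in place of the longest, rho for the members was 0.19, 0.28 and -0.22. These are descriptions across genes, which share the same libraries and are not independent replicates.

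Set beside loci in the same length bin, part of the difference remained in the group values. The top bin has no upper limit, and the longest transcripts of Dync1h1, Kif26b and Map1b are 14342, 13749 and 11808 nucleotides. Differences of length within that bin were therefore not removed, and their part in what remained was not tested. At 6 kb or more, 12 of 21 members were higher in affected than control offspring, beside 25.2% of all loci of that length, and 15 of 21 were higher than in unaffected offspring, beside 51.2%. After the median of the length bin was subtracted, the medians against control were 0.16 for the long and 0.10 for the short members, and against unaffected 0.11 and 0.17, so the long members no longer stood above the short in both. By role, the same step left medians against control and against unaffected of 0.27 and 0.07 for mitotic kinesins, 0.14 and 0.12 for transport and other kinesins, and 0.10 and 0.27 for microtubule-associated proteins. For the tubulins they were 0.19 and 0.25, for kinesin light chains 0.09 and 0.14, for the other dynein chains 0.06 and 0.19, and for dynein light chains -0.12 and -0.04. In unaffected against control it left -0.02 for transport and other kinesins, -0.18 for microtubule-associated proteins and 0.20 for mitotic kinesins. For Map1b, Dync1h1 and Kif26b, 3 of the largest rises, the log2 ratio against control went from 0.52, 0.53 and 0.52 to 0.31, 0.33 and 0.32, of which that of Dync1h1 alone still passed the fold. Against unaffected it went from 0.95, 0.96 and 0.95 to 0.62, 0.63 and 0.62, all still past the fold. Counts over all members became 6 higher and 1 lower against control, 12 and 3 against unaffected, and 1 and 0 in unaffected against control. With bins of the median transcript length, that last split was 1 higher and 2 lower. The share of all loci past the fold after either subtraction was not computed, so these counts have no such share beside them.

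**Figure D4:**
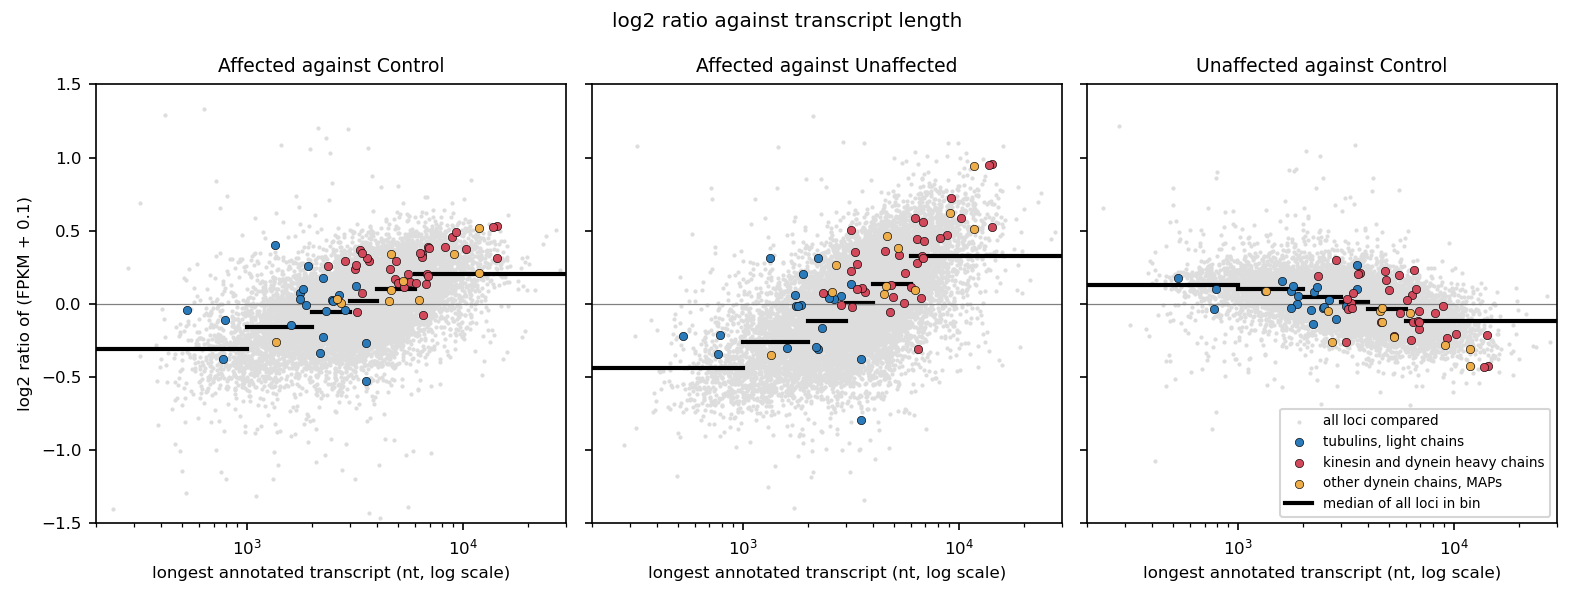
The log2 ratio of FPKM + 0.1 against the longest annotated transcript (log axis, nucleotides) in 3 comparisons, with all loci in grey, members coloured by kind and a black bar for the median of all loci in each length bin. Loci with a ratio beyond 1.5 either way lie outside the axes. The black bars climb from -0.31 to 0.21 in affected against control and descend from 0.13 to -0.12 in unaffected against control. The members change with length in the same direction. Of 66 members, 52 lie above the bar of their bin in affected against control, 45 in affected against unaffected and 26 in unaffected against control.

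Sequencing depth also appeared to differ between the groups. Total fragment counts were not given in the sources used here. At loci under 0.1 FPKM, where values step by single fragments, the ratio of the steps was used as a guide to depth. It put affected libraries at 1.13 to 1.62 times control and 1.04 to 1.42 times unaffected libraries. Unaffected libraries were put at 1.04 to 1.20 times control. Larger ratios were left out beforehand and only the most frequent were kept, so the true ranges may be wider. Of the 2099 such loci in affected against control, 188 lay at the ratios kept. Red cell markers moved with the groups as well, and choroid plexus markers did in part. The 5 erythroid loci compared were all higher in unaffected than control and all lower in affected than unaffected offspring, beside 5.45% and 18.1% of all loci, with a summed level of 5813, 7519 and 3648 FPKM. Of 5 choroid plexus markers, 3 were higher in affected than control (Clic6, Krt8 and Krt18, with a list median of 0.88), beside 12.1% of all loci. Against unaffected offspring 3 were higher and 0 lower, beside 20.3% and 18.1%. Ttr and Folr1 stood within the fold, at 0.15 and 0.11 against control and -0.26 and -0.15 against unaffected offspring. The summed level over the 7 listed genes was 988, 1313 and 1104 FPKM, of which Ttr held 970.2, 1291 and 1077. The part of length, depth and these cell types in the member values was not tested.

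The remaining marker lists are given by their counts, beside 12.1% of all loci higher and 11.3% lower against control. Radial glia and intermediate progenitor markers, 9 compared, were 2 higher (Nes and Eomes) and 2 lower (Fabp7 and Slc1a3) in affected against control offspring. Their summed level was 2493, 2650 and 1896 FPKM, of which Fabp7 held 2015, 2151 and 1352. Against control, oligodendrocyte lineage markers were 0 higher and 1 lower of 4 (Sox10), meningeal markers 0 and 1 of 5 (Dcn), endothelial markers 2 and 0 of 5 (Kdr and Cdh5, list median 0.28, and 0.46 with 3 higher and 0 lower against unaffected, beside 20.3% and 18.1%), and microglial markers 0 and 2 of 5 (C1qa and Aif1). Neuronal markers of the cortex were present in every group, such as Tbr1 at 75.7, 62.1 and 98.3 FPKM.

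Genes that work with the members were taken from 8 lists. Plus-end tracking proteins, which ride growing filament tips, were the list with the most higher values, with 6 of 17 higher and 0 lower against control (median 0.28) and 13 of 17 higher and 0 lower against unaffected offspring (median 0.42), beside 12.1% and 20.3% of all loci higher. Apc2 stood at 47.4, 41.0 and 63.6 FPKM, Clasp1 at 26.8, 22.8 and 34.8, and Nav2 at 5.91, 4.03 and 7.74, whereas Mapre1, the short end-binding protein, was level at 57.8, 58.1 and 58.5. The median longest transcript of this list was 7001 nucleotides, a length at which 25.2% and 51.2% of all loci were higher, and with the median of the length bin subtracted the list's medians were 0.14 and 0.28. Of 18 stathmins and other microtubule-associated proteins, 4 were higher and 2 lower against control (median 0.19, and 0.02 with the median of the length bin subtracted). Against unaffected offspring 8 were higher and 2 lower (0.26, and 0.08). The 2 lower are 11.1% of the list in each, beside 11.3% and 18.1% of all loci, so no more than that share. The 2 lower genes were stathmins, which sequester tubulin dimers, Stmn2 at 1003, 1027 and 800.3 FPKM and Stmn3 at 855, 917 and 641, and Stmn1, at 6330, 6333 and 5238, stood inside the fold (-0.27).

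For the lists that follow, 12.1% of all loci were higher and 11.3% lower against control, and 20.3% and 18.1% against unaffected. Tubulin folding cofactors, which assemble the dimer, were 0 higher and 1 lower of 8 against control (median -0.04) and 0 higher and 3 lower against unaffected (-0.14, and -0.0089 with the length bin subtracted). Tbca, the beta tubulin chaperone, stood at 475, 498 and 346 FPKM. Dynactin and dynein regulators were 1 higher (Spdl1) and 1 lower (Dctn3) of 18 against control (median 0.01) and 1 higher (Dctn1) and 1 lower (Dctn3) against unaffected (0.02), with Pafah1b1, the LIS1 gene, at 64.8, 57.6 and 71.4 FPKM, Dctn1 at 52.9, 49.2 and 64.9 and Dctn3 at 226, 235 and 171. Gamma-tubulin ring and nucleation genes were 3 higher and 0 lower of 19 against control (median 0.01) and 3 higher and 4 lower against unaffected. The 3 higher were the large scaffolds Pcnt (3.16, 2.69 and 4.65 FPKM), Akap9 (11.0, 8.43 and 15.3) and Cdk5rap2 (4.28, 3.79 and 5.91). Kinesin cargo adaptors and partners were 1 higher and 0 lower of 15 against control (median 0.12) and 4 higher and 1 lower against unaffected (0.17, and 0.03 with the length bin subtracted), and the gene higher in both was Mapk8ip3 at 22.1, 19.5 and 29.3 FPKM. Tubulin-modifying and severing enzymes were 0 higher and 1 lower of 19 against control (median 0.18) and 5 higher and 2 lower against unaffected (0.23, and 0.04 with the length bin subtracted), and the gene lower in both was Svbp at 121, 128 and 95.7 FPKM. Axonemal dyneins of motile cilia were mostly below the filter, with 4 of 17 listed genes compared, 0 higher and 1 lower (Dnah7a) against control.

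The members set apart for cortical malformation, which are the genes named above with Kif1a and Tubb2a added, gave 8 loci that could be compared, of which 3 were higher and 0 lower against control (Dync1h1, Kif1a and Dcx) and 4 higher and 0 lower against unaffected offspring (with Kif2a). Their median log2 ratio was 0.16 against control and 0.33 against unaffected, and -0.09 in unaffected against control. Beside these counts, 12.1% and 20.3% of all loci were higher, and 25.2% and 51.2% of those of 6 kb or more. The median longest transcript of these loci was 6080 nucleotides, and with the median of the length bin subtracted their medians were 0.14 against control and 0.22 against unaffected. Tubb3, Tubb5 and Tubg1 were level within the fold in all 3 comparisons, and Tuba1a, Tubb2a and Tubb2b could not be compared. Of the 15 members below 1 FPKM, Kif12, Kif2b and a second Dynlt1f locus were listed at 0 in every group, and the others included Kif17, Kif19a, Kif24, Kif27, Kif6, Tubb1 and Kifc5b.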

How the data were processed

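Polyadenylated RNA was sequenced as 50-base pairs with a kit that does not mark strand, so overlapping genes cannot be separated. The authors aligned reads to mm10 and deposited 1 FPKM per gene and group, pooled over 3 animals. The submitters' processing notes name Bowtie2 2.2.4.0, Cufflinks and Cuffdiff. The table's own columns of fold changes, test statistics, p-values and calls were not used. Total depth per sample was not given in the sources used here, and no interval was computed.

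Ratios used log2(FPKM + 0.1), over loci with a mean of at least 1 FPKM in the 3 groups and an estimate in each. Members, lists and the naming rule were chosen with earlier results of these data known. Named genes were, in each role, the 5 highest in mean FPKM, the 5 largest rises and falls per comparison, malformation genes, mitotic kinesins and microtubule-associated proteins; other genes named were chosen after their values were seen. The lists were dynactin, kinesin adaptors, folding cofactors, gamma-tubulin ring, stathmins, plus-end tracking, tubulin-modifying enzymes and axonemal dyneins. Marker lists covered 9 cell types. Transcript lengths came from GENCODE M21 (GRCm38), matched by symbol for 12330 of 15543 loci compared (79.3%) and 99.1% of those with 1 gene name. Since under 80% of all loci had a length, the length bins describe loci with 1 gene name. Python 3.11.15, numpy 2.4.6 and pandas 2.3.3 were used, and the code was tested on simulated data. Alternatives were other pseudocounts, filters, folds, scalings and length measures.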

Additional observations from a re-analysis of the deposited data

How the results depend on the processing

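No paired analysis was possible because the table holds 1 pooled value per group, and for the same reason no fit with the replicate number as a block and no leaving out of animals was run. In the order affected against control, affected against unaffected, unaffected against control, the counts of members higher past the fold were 0, 7 and 0 at a fold of 50% above and 30, 30 and 6 at 15% above, and the counts lower were 0, 1 and 0 and then 6, 10 and 13. The share of all loci past the fold was computed only for the fold, filter and pseudocount used above, without centring. The counts at other settings here therefore have no such share beside them. A pseudocount of 1 FPKM left 1 member lower against control. Without a filter 1 member was higher in unaffected than control, and the short members' median against unaffected was -0.16. At a mean of at least 5 FPKM, 10 were higher against control, where fewer members are tested. Centring on the median of all loci and leaving out joined names moved no count by over 1.5 times. Subtracting the median of the bin of median transcript length gave 1 member higher in unaffected than control. Bins of the longest transcript, chosen after seeing the data, gave 6 higher and 1 lower against control, 12 higher against unaffected, and 1 higher and 0 lower in unaffected against control, with short and long medians of 0.10 and 0.16 against control and 0.17 and 0.11 against unaffected. Of the 66 members, 12, 18 and 12 then changed sign in the 3 comparisons, among them Map2 against unaffected (-0.24), Kif5b (-0.22), Kif5c (-0.02) and, past the fold before, Dynlt1b (0.10). Leaving out the 8 members that share at least 30% of their windows with another gene, a near-identical copy or an overlapping neighbour, also chosen after seeing the data, left 1 lower in each comparison with affected offspring. Spearman's rho of the members with length was 0.19, 0.28 and -0.22 with the median transcript, 0.63, 0.69 and -0.48 with the longest, and 0.45, 0.57 and -0.45 with the genomic locus. The cause of these shifts was not tested. Low members, such as Kif9 and Dync2h1 near 1 FPKM, are the least precise.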
